A study of Homo sapiens with 4 samples.

Results

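The 10 genes described here encode glutathione transferases: GSTA4, GSTM2, GSTM3, GSTM4, GSTP1 and GSTO1 of the soluble cytosolic classes, GSTK1 of the mitochondrial kappa class, and MGST1, MGST2 and MGST3 of the microsomal membrane class. They were taken by symbol, and all 10 were found among the 23228 gene symbols of the count tables. The members were selected from a family known to be measured in these libraries, with their PELP1 siRNA and control siRNA counts already seen, so their differences between the groups are given as a description. The RNA was that of U87 MG, a long-established line grown from a human glioblastoma, transfected either with siRNA against PELP1 (2 libraries) or with a control siRNA (2 libraries). The PELP1 protein is a coregulator that links nuclear receptors to chromatin-modifying enzymes. Cells of both groups received oligofectamine and serum-containing DMEM, and total RNA was taken after 72 hours. All 4 libraries come from 1 cell line, the sources used here give no siRNA sequence, and the labels do not say whether the duplicates were separate cultures, so p-values measure only the spread between these libraries, which may be technical.

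Glutathione transferases join the tripeptide glutathione to reactive electrophiles such as lipid aldehydes, epoxides and many drugs, which are then pumped out of the cell and trimmed to mercapturates. The cytosolic, kappa and microsomal enzymes arose as separate protein families that share this chemistry, and several also act as peroxidases or isomerases. In brain tumours GSTP1 is the member studied most, for its link to resistance to alkylating drugs. Many genes of the family are textbook targets of NRF2, a transcription factor that binds the antioxidant response element.

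The libraries held 19389684 and 18670162 gene counts with PELP1 siRNA and 19662271 and 22858988 with control siRNA. PELP1 itself stood at 15.2 and 17.7 CPM in the PELP1 siRNA libraries, against 74.0 and 78.1 CPM in the control siRNA libraries, where CPM is the normalised read count, each count divided by the TMM-scaled size of its library. Of the 5 mesenchymal glioma markers reported here, VIM averaged 5833 ± 316 CPM with PELP1 siRNA and 7081 ± 84.2 CPM with control siRNA (SD, n = 2 each), and 3 (VIM, CD44 and FN1) passed the threshold, an adjusted p under 0.05, as lower. TNC and S100A6 missed it. Of all genes tested, 15.0% passed as lower. The part of the marker shift in the results on the transferases was not tested. Of the 4 astrocyte markers, 2 (AQP4 and ALDH1L1) had 0 counts in all 4 libraries, and the 2 others had counts. The tumour suppressor CDKN2A, whose gene is known to be deleted in U87, also had 0 counts in all 4 libraries. The 4 hepatocyte markers, of a tissue rich in alpha class transferases, summed to 1.32 to 1.42 CPM with PELP1 siRNA and 1.39 to 1.87 CPM with control siRNA, and ALB and TTR were at 0. The 3 epithelial markers summed to 1.53 to 1.73 CPM with PELP1 siRNA and 0.893 to 0.980 CPM with control siRNA, and EPCAM, the 1 of them tested, passed as higher (log2 fold change 1.02). The 4 neuron markers summed to 49.3 to 51.2 CPM with PELP1 siRNA and 62.5 to 65.2 CPM with control siRNA, and of the 2 tested SNAP25 passed as lower. The part of these markers in the results was not tested either.

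How far a short read can tell the family's genes apart differs greatly between members. Each read was 50 bases long, and reads with more than 1 alignment stand in a summary line of each file and not under a gene. All windows of 50 bases within single exons of each canonical GENCODE transcript were therefore searched for exact copies elsewhere in GRCh37. For GSTA4, GSTP1, GSTK1, MGST1 and MGST2, 0 windows had a second copy. For MGST3 it was 5 of 864 windows (0.579%). For GSTO1 it was 31 of 519 windows (5.97%), all of them also in the pseudogene GSTO3P. GSTM3 shared 224 of 3681 windows (6.09%), none of which touched its coding bases. GSTM4 shared 108 of 1002 windows (10.8%).

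GSTM2 stood apart, with 460 of 774 windows not unique (59.4%), of which 457 also lie in GSTM1, a mu class gene that is not among the 10 members. The untranslated part accounts for most of this: 404 of the 414 GSTM2 windows without coding bases had a second copy, against 56 of the 360 that touch coding bases. GSTM1 was alike, with 483 of 772 windows (62.6%). Across the whole coding sequence of 654 bases, GSTM2 was 89.9% identical to GSTM1 and 89.1% identical to GSTM4, and 72.3% identical to GSTM3. Counts of GSTM2, GSTM4 and GSTM1 thus rest on the parts of each gene that differ, and their levels are uncertain to that extent.

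**Figure D1:**
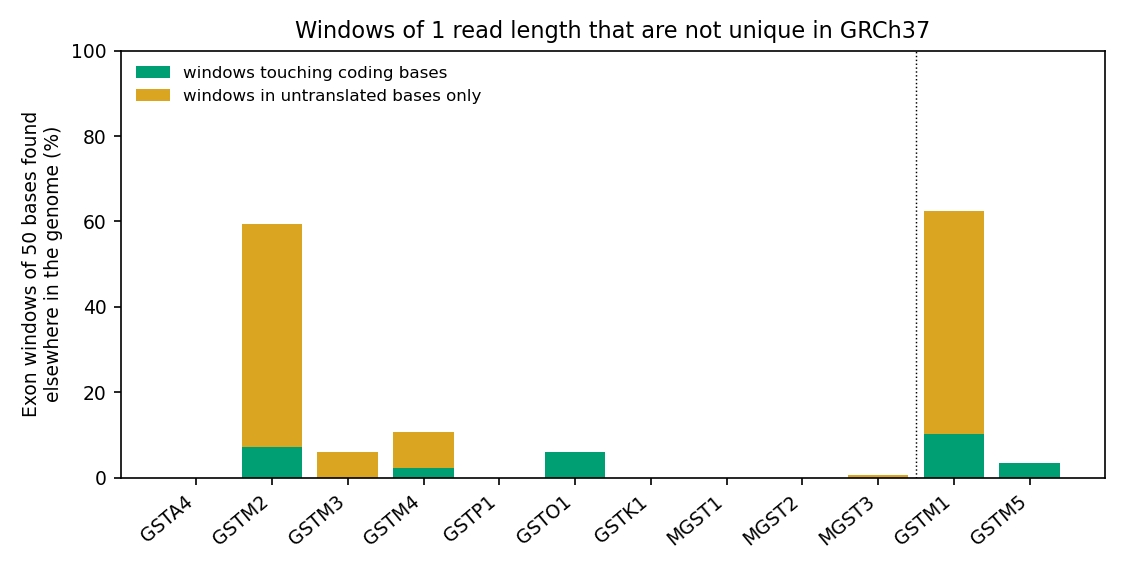
Share of 50-base exon windows (%, vertical axis) that occur more than once in GRCh37, for the 10 members and, right of the dotted line, GSTM1 and GSTM5. Green marks windows that touch coding bases and gold those in untranslated bases only: GSTM2 reaches 59.4% and GSTM1 62.6%, while GSTA4, GSTP1, GSTK1, MGST1 and MGST2 stand at 0.

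A stretch of the mu class genes is shown here because it is longer than a read, so that reads within it cannot be placed, and because it lies in coding exon 3 of the genes on chromosome 1 (GRCh37, plus strand). It is the longest identical run of GSTM2 and GSTM1 coding sequence, 65 bases, beside the same stretch of GSTM4 and GSTM5. The capital letter marks the 1 base at which the genes differ. Counted from 1 at the 5' end, GSTM4 and GSTM5 carry T8C relative to GSTM2, and GSTM1 carries no difference. The windows are chr1:110211547-110211611 for GSTM2, chr1:110199837-110199901 for GSTM4, chr1:110231295-110231359 for GSTM1 and chr1:110255741-110255805 for GSTM5.
GSTM2: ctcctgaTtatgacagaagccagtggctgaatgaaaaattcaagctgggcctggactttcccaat
GSTM4: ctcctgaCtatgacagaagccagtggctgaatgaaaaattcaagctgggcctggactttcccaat
GSTM1: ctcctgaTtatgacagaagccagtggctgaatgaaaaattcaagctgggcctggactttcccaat
GSTM5: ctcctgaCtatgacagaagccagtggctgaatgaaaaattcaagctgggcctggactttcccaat

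The 4 mu class genes on the plus strand and GSTM3 on the minus strand form a cluster between 110198721 and 110318050 of chromosome 1. Within it, the annotated exons of GSTM2 share 559 bases with those of GSTM1 on the same strand (6.13% of the exon bases of GSTM2), none of them in the canonical transcript. GSTM3 shares 4.90% of its canonical transcript with a non-coding gene on the opposite strand. GSTM1 shares 34.5% of its canonical transcript with another non-coding gene on the opposite strand. Whether the counting used strand is not stated, so it is not known whether reads of opposite-strand partners were kept apart. A strand setting would not separate GSTM2 from GSTM1 in the exon bases they share.

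The promoters of 3 members are shown because GSTA4 was the 1 member called, GSTP1 is the best known NRF2 target among them, and GSTO1 had the lowest log2 fold change. Each is the 250 bases before the RefSeq start of the gene on GRCh38.p14, written in the direction of transcription. Capitals mark the antioxidant response element core TGACNNNGC, the AP-1 element TGACTCA, which can lie within that core, and the GC box GGGCGG. The windows are chr6:52995285-52995534 on the minus strand for GSTA4, chr11:67583562-67583811 on the plus strand for GSTP1 and chr10:104254642-104254891 on the plus strand for GSTO1.
GSTA4: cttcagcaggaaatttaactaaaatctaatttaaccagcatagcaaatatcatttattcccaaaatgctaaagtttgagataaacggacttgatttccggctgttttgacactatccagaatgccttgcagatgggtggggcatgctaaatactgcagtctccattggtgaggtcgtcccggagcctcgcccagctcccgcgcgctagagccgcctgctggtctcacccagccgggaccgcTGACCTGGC
GSTP1: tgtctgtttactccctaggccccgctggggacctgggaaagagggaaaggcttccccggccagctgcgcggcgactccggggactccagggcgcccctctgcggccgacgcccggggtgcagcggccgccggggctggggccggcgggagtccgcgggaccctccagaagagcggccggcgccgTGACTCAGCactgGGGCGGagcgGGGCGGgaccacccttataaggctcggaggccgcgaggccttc
GSTO1: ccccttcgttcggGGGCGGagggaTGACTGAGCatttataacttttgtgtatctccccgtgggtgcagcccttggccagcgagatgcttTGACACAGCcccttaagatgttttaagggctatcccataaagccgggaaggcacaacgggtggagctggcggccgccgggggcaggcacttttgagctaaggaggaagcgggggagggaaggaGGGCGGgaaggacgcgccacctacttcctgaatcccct

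Of the 10 members, 9 had a RefSeq promoter window (11 windows in all, since MGST1 has 3), and MGST2 had none in the table. Searched on both strands from 250 bases before to 50 after the start, the antioxidant response element core was found in windows of 4 members: GSTA4, GSTP1, GSTO1 and MGST1. It occurs in 13.3% of all 35116 promoter windows. In MGST1 it lies past the start, in 1 of the 3 windows. In GSTA4 it ends at the last base before the start, and in GSTP1 it lies 66 to 58 bases before the start and holds the only AP-1 element of the members' windows. The AP-1 element occurs in 4.95% of all windows. The GC box was found in 7 members and in 45.0% of all windows, and the E-box CACGTG in 0 members and in 7.26% of all windows. Such matches describe the letters in these windows and do not show that a factor binds.

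GSTA4 was the only member called in the fit over all genes. GSTA4, an alpha class enzyme best known for clearing hydroxynonenal, an aldehyde made when membrane lipids are oxidised, lies on chromosome 6 (GRCh37, 52842746 to 52860102, minus strand). It had 312 and 277 counts, or 15.8 and 14.6 CPM, in the PELP1 siRNA libraries, against 151 and 137 counts, or 7.79 and 6.12 CPM, in the control siRNA libraries. Both PELP1 siRNA libraries lay above both control siRNA libraries. The means were 15.2 ± 0.880 CPM with PELP1 siRNA and 6.95 ± 1.18 CPM with control siRNA (SD, n = 2 libraries each), a ratio of 2.19 and a log2 fold change of 1.14 with an SE of 0.14. Of 13234 genes tested, 64 had a larger log2 fold change. In such bulk RNA, a change in the share of cells that express a gene and a change in the RNA per cell cannot be told apart.

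Of the 9 members tested, 1 was called higher and 0 lower at an adjusted p under 0.05 (edgeR's quasi-likelihood test with Benjamini-Hochberg adjustment over all genes). Over all 13234 genes tested, 27.9% were called, 12.9% as higher and 15.0% as lower. In 5 of the 9 members (GSTA4, GSTM2, GSTM3, GSTO1 and MGST1) the libraries of the groups did not overlap, as was the case for 64.2% of all genes tested. For GSTM3, PELP1 siRNA library 2 and control siRNA library 1 both had 12 counts. Only the scaling by library set them apart, at 0.632 and 0.619 CPM. The median log2 fold change was 0.045 over the 9 members and 8.82e-04 over all genes. Because the members were chosen with this comparison known, nothing is read from these counts. The other members tested lay between -0.17 and 0.28, and for the 7 of them with at least 5 CPM the SE was 0.061 to 0.11.

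**Figure D2:**
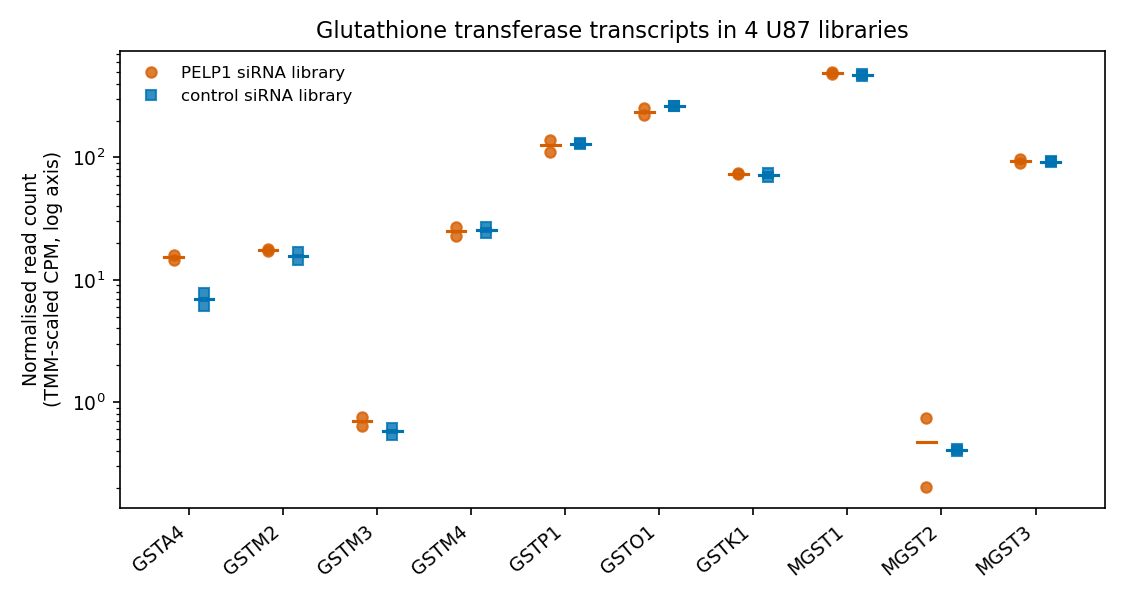
TMM-scaled CPM (vertical log axis) of the 10 members in each library, with PELP1 siRNA libraries as orange circles, control siRNA libraries as blue squares and a short line at each group mean. GSTA4 stands at 14.6 and 15.8 CPM with PELP1 siRNA and at 6.12 and 7.79 CPM with control siRNA, while the group means lie close together for the others.

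The 4 other alpha class genes listed had no count. GSTA1, GSTA2, GSTA3 and GSTA5 lie beside GSTA4 on chromosome 6, between 52614885 and 52774496, and all had 0 counts in all 4 libraries. A count of 0 allows up to 0.152 and 0.158 CPM in the PELP1 siRNA libraries and up to 0.155 and 0.134 CPM in the control siRNA libraries (3 counts, counting error only). GSTA1, GSTA2, GSTA3 and GSTA5 were not searched for windows shared among themselves. Reads that fit several of these genes equally well would be left out of their counts. GSTA4 had 0 of 910 windows with a second copy. GSTA4 was the 1 listed alpha class gene with counts.

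The mu class members were scarce to moderate. GSTM4 (chromosome 1, 110198721 to 110208118, plus strand), a mu class enzyme, had 22.8 and 26.9 CPM with PELP1 siRNA and 24.2 and 26.9 CPM with control siRNA. Its groups overlapped, and its log2 fold change was -0.044 (SE 0.10). GSTM2 (chromosome 1, 110210644 to 110252173, plus strand), which conjugates aminochrome and other quinones, had 17.3 and 17.7 CPM with PELP1 siRNA and 14.7 and 16.7 CPM with control siRNA. Both PELP1 siRNA libraries were higher, by 0.15 on the log2 scale (SE 0.11), and GSTM2 did not pass the threshold. GSTM1, the gene that shares most of its windows with GSTM2, had 8.07 and 8.06 CPM with PELP1 siRNA and 6.60 and 8.08 CPM with control siRNA (log2 fold change 0.13, SE 0.15, adjusted p = 0.546).

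GSTM3 (chromosome 1, 110276554 to 110283660, minus strand), the mu class enzyme known from brain and testis, was near the limit of detection. It had 15 and 12 counts with PELP1 siRNA and 12 and 12 with control siRNA, and the exact 95% Poisson intervals of these counts ran from 8.40 to 24.7 for 15 and from 6.20 to 21.0 for 12, which overlap. Its log2 fold change of 0.28 had an SE of 0.41. A difference of this size was not detectable at this depth. GSTM5, the fifth gene of the cluster, stood at 0.406 and 0.843 CPM with PELP1 siRNA and 0.413 and 0.536 CPM with control siRNA (log2 fold change 0.37, SE 0.46, adjusted p = 0.587).

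The pi and omega class members were abundant, and both were lower in PELP1 siRNA library 1 than in library 2. GSTP1 (chromosome 11, 67351213 to 67354127, plus strand), which detoxifies alkylating agents and also binds the stress kinase JNK, had 111 and 139.9 CPM with PELP1 siRNA and 128 and 132 CPM with control siRNA. The control siRNA libraries lay between the PELP1 siRNA libraries, and the log2 fold change was -0.051 (SE 0.083). GSTO1 (chromosome 10, 105995114 to 106027217, plus strand), an omega class enzyme that acts as a thiol transferase and reduces dehydroascorbate, had 220.5 and 252 CPM with PELP1 siRNA and 266 and 266 CPM with control siRNA. Both PELP1 siRNA libraries were lower, by 0.17 on the log2 scale (log2 fold change -0.17, SE 0.069), and GSTO1 did not pass the threshold. It passed when no filter on low counts was used (log2 fold change -0.18).

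The calls of these members moved with single libraries. Without PELP1 siRNA library 2, GSTO1 (log2 fold change -0.26) and GSTP1 (-0.22) both passed the threshold as lower. Without PELP1 siRNA library 1, GSTP1 had a log2 fold change of 0.11 and did not pass, GSTO1 one of -0.074 and did not pass, and MGST1 passed as higher at 0.10. In these fits the lone library is assumed to vary like the pair of the other group. GSTA4 passed as higher in each of the 11 other fits, with log2 fold changes of 0.97 to 1.31.

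GSTK1 (chromosome 7, 142941186 to 142967947, plus strand), the kappa class enzyme of mitochondria and peroxisomes, had 72.6 and 75.2 CPM with PELP1 siRNA and 74.4 and 69.0 CPM with control siRNA. The groups overlapped, and the log2 fold change was 0.045 (SE 0.077).

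The microsomal members spanned a wide range of levels. MGST1 (chromosome 12, 16500076 to 16762193, plus strand), a trimeric enzyme of the endoplasmic reticulum and the outer mitochondrial membrane that also reduces lipid hydroperoxides, had 479 and 504 CPM with PELP1 siRNA and 463 and 478 CPM with control siRNA. Both PELP1 siRNA libraries lay above both control siRNA libraries, the nearest by less than 2 CPM, and the log2 fold change of 0.064 (SE 0.061) did not pass the threshold. MGST3 (chromosome 1, 165600450 to 165631033, plus strand), which also has peroxidase activity, had 90.2 and 97.0 CPM with PELP1 siRNA and 91.7 and 93.4 CPM with control siRNA. Here the groups overlapped, and the log2 fold change was 0.016 (SE 0.073).

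MGST2 (chromosome 4, 140586922 to 140661899, plus strand), which can make cysteinyl leukotrienes, was the 1 member that did not pass the filter on low counts. It had 4 and 14 counts with PELP1 siRNA and 8 and 9 with control siRNA. The PELP1 siRNA libraries lay on either side of the control siRNA libraries, so no direction can be given.

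Summed over the 10 members, transferase transcripts came to 1031 and 1129 CPM with PELP1 siRNA and 1071 and 1089 CPM with control siRNA. The means were 1079.8 ± 69.5 CPM with PELP1 siRNA and 1079.8 ± 12.6 CPM with control siRNA (SD, n = 2 each). The 6 cytosolic members summed to 388 and 452 CPM with PELP1 siRNA and 441 and 448 CPM with control siRNA. The 3 microsomal members summed to 569.6 and 602 CPM with PELP1 siRNA and 556 and 571 CPM with control siRNA. The sums thus differed more between the PELP1 siRNA libraries than between the group means.

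Levels were compared between genes per kilobase of transcript, and the order depended on which length was used. With the canonical transcript, a length chosen after seeing the data, MGST1 led at 532 ± 19.2 CPM per kilobase with PELP1 siRNA and 509 ± 10.8 with control siRNA (SD, n = 2 each). It was followed by GSTO1 at 290.5 ± 27.2 with PELP1 siRNA and 327 ± 0.452 with control siRNA, and by GSTP1 at 169 ± 27.3 with PELP1 siRNA and 175 ± 3.72 with control siRNA. MGST3 (80.8 with PELP1 siRNA) and GSTK1 (71.6) came next, then GSTM4 (17.8), GSTM2 (15.0) and GSTA4 (12.3). These levels divide by the whole transcript, although 59.4% of GSTM2 windows and 10.8% of GSTM4 windows are not unique, so the order of GSTM4, GSTM2 and GSTA4 is uncertain. MGST2 (0.636) and GSTM3 (0.169) were last.

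With the union of all annotated exons, which is long for genes with many isoforms, GSTO1 led at 139.6 ± 13.1 CPM per kilobase with PELP1 siRNA and 157 ± 0.217 with control siRNA. GSTP1 followed at 71.2 ± 11.5 with PELP1 siRNA and 73.7 ± 1.56 with control siRNA, then MGST1 at 66.1 ± 2.39 with PELP1 siRNA and 63.2 ± 1.35 with control siRNA. The libraries of GSTP1 and MGST1 overlapped with PELP1 siRNA and did not with control siRNA, and GSTO1 lay above both genes in every library. With the longest annotated transcript, MGST1 stood at 229 ± 8.27 with PELP1 siRNA and 219 ± 4.65 with control siRNA, and GSTO1 at 224 ± 21.1 with PELP1 siRNA and 253 ± 0.350 with control siRNA. Under this length their PELP1 siRNA libraries overlapped, and with control siRNA both GSTO1 values lay above both MGST1 values. MGST1, GSTO1 and GSTP1 filled the first 3 places under each length, and MGST2 and GSTM3 the last 2. GSTA4 made up 2.26% of the members' summed level per kilobase with PELP1 siRNA and 0.995% with control siRNA by the union of exons, and 1.03% with PELP1 siRNA and 0.468% with control siRNA by canonical length.

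**Figure D3:**
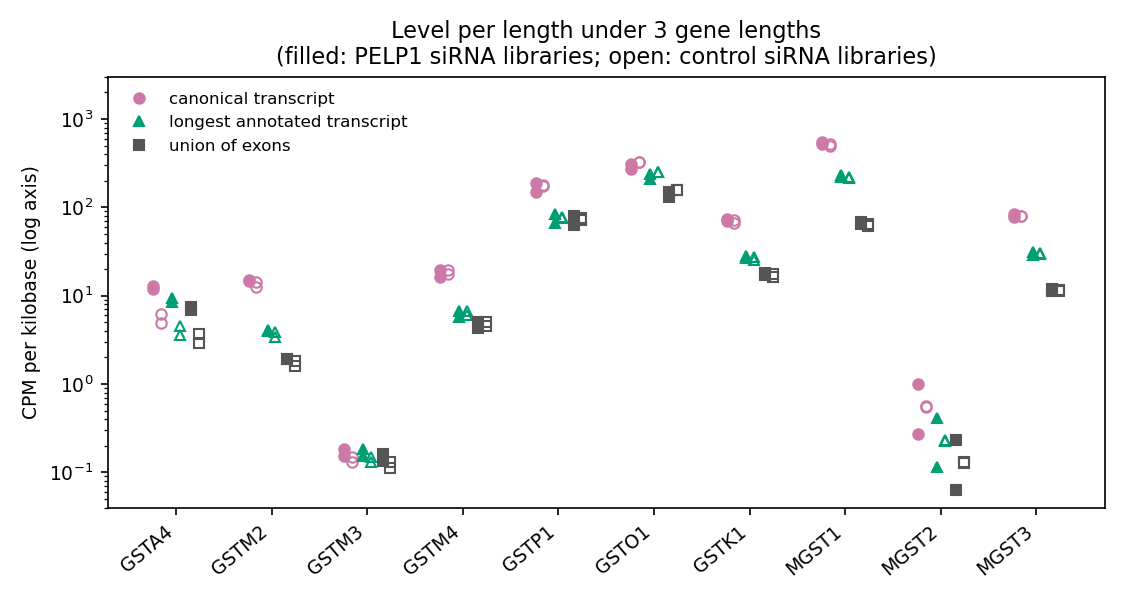
CPM per kilobase (vertical log axis) of the 10 members in each library under 3 gene lengths, with filled symbols for PELP1 siRNA libraries and open symbols for control siRNA libraries. MGST1, GSTO1 and GSTP1 are highest under every length, and MGST1 shifts most, between 66.1 and 532 with PELP1 siRNA.

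Beyond the members, 16 further transferase and related membrane enzyme genes were listed, of which 7 passed the filter. Of these, 1 passed the threshold as higher and 1 as lower, and 5 missed it (median log2 fold change 0.061). The shares over all genes tested were 12.9% higher and 15.0% lower. GSTZ1, the zeta class enzyme that isomerises maleylacetoacetate in tyrosine breakdown, had 31.7 and 38.3 CPM with PELP1 siRNA and 28.5 and 29.3 CPM with control siRNA. It rose by 0.28 on the log2 scale (SE 0.099, adjusted p = 0.0412), and this call was lost without PELP1 siRNA library 2 (0.14, adjusted p = 0.220), without control siRNA library 1 (adjusted p = 0.327) or 2 (adjusted p = 0.228), and with DESeq2 (adjusted p = 0.117).

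PTGES, a membrane enzyme of the same family as the microsomal transferases that makes prostaglandin E from its endoperoxide precursor, had 83.2 and 92.1 CPM with PELP1 siRNA and 141 and 147 CPM with control siRNA. It fell by 0.72 on the log2 scale (SE 0.073, adjusted p = 9.23e-08). GSTT1, the theta class enzyme, averaged 18.8 ± 0.604 CPM with PELP1 siRNA and 18.5 ± 1.18 CPM with control siRNA (log2 fold change 0.025, adjusted p = 0.886). GSTCD, a protein with a transferase-like domain, averaged 42.5 ± 2.39 CPM with PELP1 siRNA and 40.7 ± 0.953 CPM with control siRNA (log2 fold change 0.061, adjusted p = 0.641). GSTO2, the scarce neighbour of GSTO1, averaged 1.14 ± 0.249 CPM with PELP1 siRNA and 1.51 ± 0.0153 CPM with control siRNA (log2 fold change -0.40, SE 0.30, adjusted p = 0.337).

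**Figure D4:**
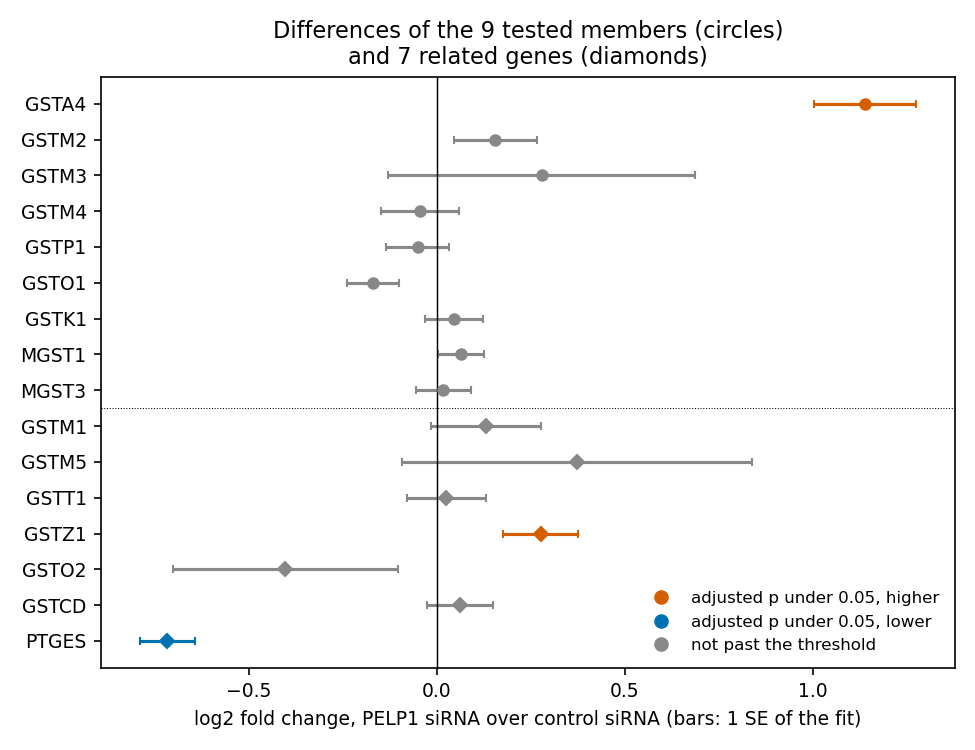
log2 fold change (PELP1 siRNA over control siRNA, horizontal axis, bars 1 SE of the fit) of the 9 tested members as circles and 7 related genes as diamonds, coloured by whether the adjusted p was under 0.05. GSTA4 stands at 1.14, the other members lie between -0.17 and 0.28, and PTGES stands at -0.72.

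The lists that follow were written with earlier results of these libraries known, so nothing is read from their counts. Their counts stand beside shares over all genes tested of 12.9% higher and 15.0% lower. Of 16 tested genes of glutathione synthesis and precursor supply, 3 passed as higher, 9 as lower and 4 missed the threshold, with a median log2 fold change of -0.30. SLC7A11, the cystine importer, fell to 35.8 ± 5.20 CPM with PELP1 siRNA, against 65.6 ± 2.06 CPM with control siRNA (log2 fold change -0.87, SE 0.094, adjusted p = 2.37e-07). Its partner chain SLC3A2 fell to 188 ± 5.61 CPM with PELP1 siRNA, against 254 ± 7.39 CPM with control siRNA (-0.43, adjusted p = 2.12e-05). GGCT, which splits gamma-glutamyl dipeptides made from glutathione, rose to 60.9 ± 1.42 CPM with PELP1 siRNA, against 36.8 ± 0.817 CPM with control siRNA (0.73, adjusted p = 6.56e-07). IDH1, a cytosolic source of NADPH, rose by 0.41 (adjusted p = 6.38e-05).

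Of 18 tested peroxidases, glutaredoxins, peroxiredoxins and thioredoxins, 2 passed as higher, 4 as lower and 12 missed the threshold (median -0.0063). TXNRD1, the cytosolic thioredoxin reductase, fell to 291 ± 25.6 CPM with PELP1 siRNA, against 652 ± 17.9 CPM with control siRNA (log2 fold change -1.16, SE 0.067, adjusted p = 8.75e-12). GLRX, a glutaredoxin that uses glutathione to reduce protein disulphides, fell by 0.49 (adjusted p = 1.23e-05). TXN2, the mitochondrial thioredoxin, rose by 0.37 (adjusted p = 8.68e-04, and 0.0659 without control siRNA library 2). GLRX5, a mitochondrial glutaredoxin of iron-sulphur cluster assembly, rose by 0.32 (adjusted p = 0.00689, and 0.204 and 0.110 without control siRNA library 1 and 2).

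Of 19 tested genes of conjugate export, mercapturate formation and the glyoxalase route, 2 passed as higher, 6 as lower and 11 missed the threshold (median -0.055). ABCC3, a pump of organic anion conjugates, fell to 37.3 ± 2.12 CPM with PELP1 siRNA, against 53.9 ± 0.394 CPM with control siRNA (-0.53, adjusted p = 6.22e-05). LAP3, a peptidase that can split cysteinylglycine, fell by 0.84 (adjusted p = 8.48e-09). GLO1, a glyoxalase that forms lactoylglutathione on the route from methylglyoxal, rose by 0.35 (adjusted p = 5.26e-04). Without control siRNA library 2 the log2 fold change of GLO1 was 0.335, and it missed the threshold. ESD, which hydrolyses formylglutathione, rose by 0.23 (adjusted p = 0.00925, and 0.257 and 0.226 without control siRNA library 1 and 2).

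NRF2 regulators and targets moved in both directions. Of 32 tested, some of which also stand in the lists above, 6 passed as higher, 14 as lower and 12 missed the threshold (median -0.11). MAFF, a small partner protein of NRF2, had 19.8 and 22.0 CPM with PELP1 siRNA and 49.0 and 51.6 CPM with control siRNA, and fell by 1.26 on the log2 scale (adjusted p = 7.32e-10). TXNRD1, given above, is the other lower gene named for this list. The aldo-keto reductases AKR1B10 (0.83, adjusted p = 5.03e-07) and AKR1C3 (0.76, adjusted p = 1.43e-06) rose.

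Of 17 tested enzymes of aldehyde removal, the route that shares substrates with GSTA4, 3 passed as higher, 3 as lower and 11 missed the threshold (median 0.069). AKR1B1, aldose reductase, rose to 5893 ± 269 CPM with PELP1 siRNA, against 4645 ± 52.7 CPM with control siRNA (0.34, adjusted p = 9.43e-05). PTGR2, a reductase of prostaglandin metabolites, rose by 0.58 (adjusted p = 5.52e-04). ALDH1A3, a retinaldehyde dehydrogenase, fell to 445 ± 18.7 CPM with PELP1 siRNA, against 876 ± 23.1 CPM with control siRNA (-0.98, adjusted p = 3.26e-11). ALDH2, the mitochondrial aldehyde dehydrogenase, fell by 0.34 (adjusted p = 0.00609, and 0.0870 and 0.155 without control siRNA library 1 and 2). Over the 95 different genes tested in these 5 lists, 16 were higher and 33 lower. Among all genes tested, 12.9% were higher and 15.0% lower.

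**Figure D5:**
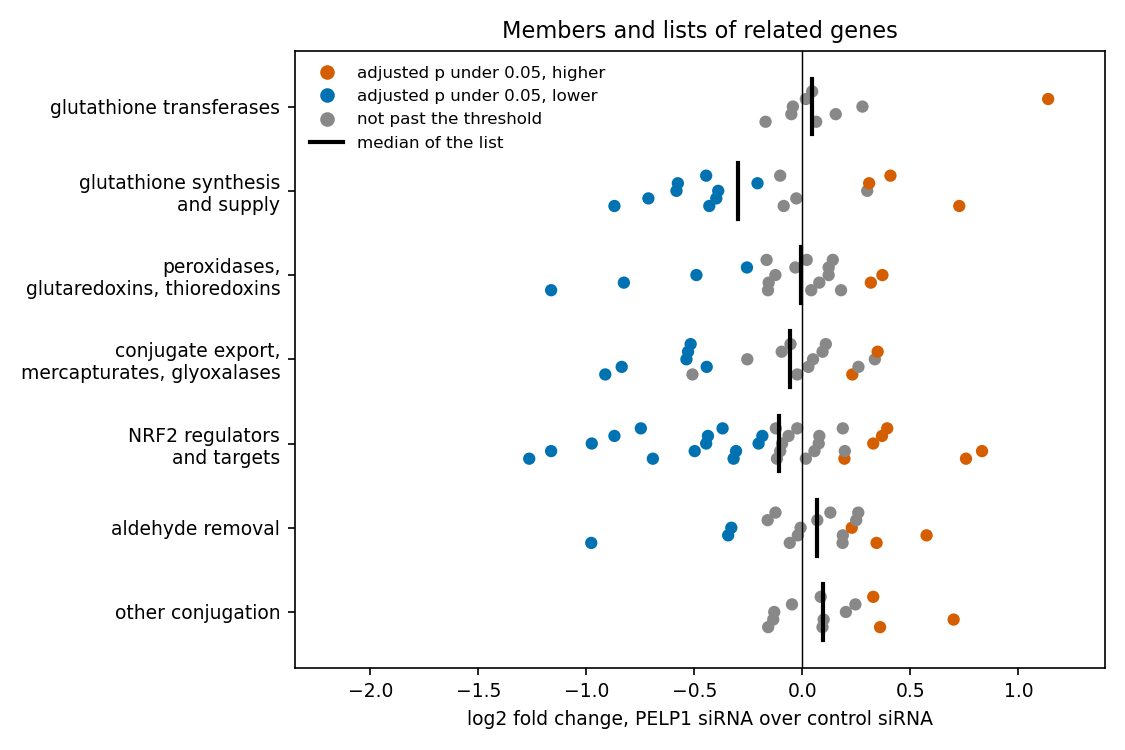
log2 fold change (PELP1 siRNA over control siRNA, horizontal axis) of each tested gene, in rows for the members and 6 lists of related genes, coloured by whether the adjusted p was under 0.05, with a black line at each median. The members sit near 0 apart from GSTA4 at 1.14, and the list of glutathione synthesis and supply has its median at -0.30.

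The 7-base words CTCAGTT and GCCTTGA, which an earlier look at 3' UTRs had picked on these same fold changes, were searched in the members. All 10 members have an annotated 3' UTR, and only GSTM2 and GSTM4 carry a word, GCCTTGA in both. Over all tested genes with a 3' UTR, 25.4% carry either word (2813 of 11074). In GSTM2 the word lies at 110217460 to 110217466 and in GSTM4 at 110203878 to 110203884 of chromosome 1 (GRCh37, plus strand), just past the stop codon. The sites are shown with their flanks, with the word in capitals, because the bases from the word onward are the same in both. GSTM1 carries the same word and following bases, with the word at 110235919 to 110235925. GSTM3 and GSTM5 carry neither word.
GSTM2: gGCCTTGAaggccaggagg
GSTM4: tGCCTTGAaggccaggagg
Neither member that carries the word passed the threshold, with log2 fold changes of 0.15 for GSTM2 and -0.044 for GSTM4. GSTA4, GSTO1 and GSTP1 carry neither word. Because the words were picked on these same fold changes, nothing is read from which members carry them.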

How the data were processed

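The 4 U87 libraries were sequenced as 50-base single reads. CASAVA 1.8.2, TopHat2 2.0.8b, HTSeq and the build hg19 (GRCh37) are listed in the submitters' processing notes. The deposited values are raw read counts per gene symbol, left without normalization by the authors. The sources used here give no HTSeq version, annotation release or strand setting. The 5 summary lines of each file (36.0 to 37.6% of all counts, with multiply aligned reads 26.3 to 27.5%) were left out. Libraries of a group differed beyond sampling noise (chi-square per gene 6.80 for the PELP1 siRNA pair and 2.03 for the control siRNA pair), so none were merged.

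The filter filterByExpr (10 as minimum count, 15 as minimum total) kept 13234 of 23228 symbols. After TMM scaling, edgeR 4.0.16 was run in R 4.3.3 (robust quasi-likelihood, group as the only term), with Benjamini-Hochberg adjustment over all genes tested and a threshold of 0.05. The pipeline was tested on simulated data. Alternatives were other scalings, other filters, the Wald test of DESeq2 1.42.0, the replicate number as a block, and leaving out each library. Members and lists were chosen with earlier results of these data known. Named genes are PELP1, the members, every other family gene tested, and for each list and direction, the 2 called genes of lowest adjusted p. Positions, lengths and 3' UTRs come from GENCODE v44lift37 on GRCh37, and promoters from RefSeq on GRCh38.p14. Intervals and floors cover counting error only. Some marker and neighbouring gene results are not reported here.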

Additional observations from a re-analysis of the deposited data

How the results depend on the processing

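Over 11 alternative settings, 38 named genes gave 415 recomputed log2 fold changes, of which 387 kept direction and side of the threshold, 14 no longer passed it, 4 newly passed it and 10 changed sign. The sign changes were all of genes that had not passed. GSTM4 had 0.0041 with total count scaling. Over the fits without 1 library, log2 fold changes ran from -0.17 to 0.074 for GSTM4, -0.22 to 0.11 for GSTP1, -0.0095 to 0.099 for GSTK1, -0.033 to 0.071 for MGST3, -0.0030 to 0.29 for GSTM1, -0.23 to 0.81 for GSTM5 and -0.041 to 0.088 for GSTT1. Over the same fits, 523 to 2724 genes were higher and 943 to 2804 lower, 1 to 2 members higher and 0 to 2 lower, and 7 to 26 pathway genes higher and 22 to 42 lower. DESeq2's Wald test called 1133 genes higher. With no filter 1 member (GSTO1) was lower. Total count scaling gave 2272 higher and 1597 lower genes (41.3% of calls lower, against 53.6%), and moved the median of all genes to 0.049. The replicate number of the labels as a block gave 1613 higher and 1968 lower genes, 1 higher and 0 lower member, and 16 higher and 32 lower pathway genes. Same-numbered libraries did not deviate together (correlation -0.041), so the numbers were not taken to pair the libraries. Members at under 1 CPM (GSTM3 and MGST2) are limited by counting.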

Other observations

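Of 12 tested enzymes of other conjugation and related detoxification steps, 3 passed as higher, 0 as lower and 9 missed the threshold (median log2 fold change 0.096). The shares over all genes tested were 12.9% higher and 15.0% lower. HNMT, which methylates histamine, rose to 21.8 ± 1.11 CPM with PELP1 siRNA, against 13.4 ± 0.0845 CPM with control siRNA (0.70, adjusted p = 2.79e-05, n = 2 each, edgeR's quasi-likelihood test). EPHX1, the microsomal epoxide hydrolase, whose substrates overlap with those of transferases, rose to 78.3 ± 5.35 CPM with PELP1 siRNA, against 62.4 ± 0.211 CPM with control siRNA (0.33, adjusted p = 0.00287), and its adjusted p was 0.110 and 0.114 without control siRNA library 1 and 2.

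Genes near GSTA4 were examined after its value was seen. The genes described lie within 500 kb of it and are not all the genes tested there, so no share is read from them. Over all genes tested, 12.9% were called higher and 15.0% lower. ELOVL5, a fatty acid elongase whose nearest edge lies 272 kb away, rose to 204 ± 2.23 CPM with PELP1 siRNA, against 159 ± 2.17 CPM with control siRNA (0.36, adjusted p = 1.74e-04). TMEM14A, 291 kb away, rose by 0.29 (adjusted p = 0.00651). FBXO9, the nearest tested gene at 56.7 kb, averaged 54.7 ± 1.49 CPM with PELP1 siRNA and 55.5 ± 0.0844 CPM with control siRNA (-0.021, adjusted p = 0.873). TRAM2, 401 kb away, averaged 195 ± 18.2 CPM with PELP1 siRNA and 214 ± 6.08 CPM with control siRNA (-0.14, adjusted p = 0.150).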
